A study of Homo sapiens with 12 samples.

Results

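The microRNAs of the imprinted DLK1-DIO3 locus on human chromosome 14 were followed in SUM159, an established human breast cancer line of the triple-negative type. The members were 48 of the 851 human microRNA names on the array, chosen by name from a list of the locus. Only 7 of the 48 carried a detection flag on at least 1 array. These were hsa-miR-494, hsa-miR-134, hsa-miR-370, hsa-miR-485-3p, hsa-miR-381, hsa-miR-300 and hsa-miR-665.

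All cells of the study were SUM159 cells grown in DMEM/F-12 and stably infected with a lentiviral vector of the PLKO.1 type, so the controls carried an integrated shRNA vector too. Control shRNA cells expressed a scrambled shRNA. Dicer shRNA cells expressed an shRNA against Dicer. The labels do not say whether either line was a pool or a clone, and uninfected cells are not analysed here. Cells of each line in logarithmic growth were given PBS (vehicle) or metformin at 0.5 mM, in both cases for 24 h. The 4 groups were therefore control shRNA with vehicle, Dicer shRNA with vehicle, control shRNA with metformin and Dicer shRNA with metformin. Each had 3 samples that the labels call biological replicates, with 1 array per sample. The design asks how lowered Dicer, metformin and their combination change microRNA levels.

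The DLK1-DIO3 domain is an imprinted region in which DLK1, RTL1 and DIO3 are expressed from the paternal chromosome, and MEG3, other long noncoding RNAs and the microRNAs from the maternal one. Many of the microRNA hairpins lie in introns of long noncoding transcripts, in arrays thought to be transcribed together. The cluster is known for high expression in embryo, placenta and brain, and for silencing in many tumours. Each hairpin is cut from its transcript by Drosha and then by Dicer, and 1 or both arms can persist as mature microRNAs, which recognise messenger RNAs mainly through the seed, bases 2 to 8 from the 5′ end.

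The mature sequences of the 7 detected members are given because 2 of them are near copies. They are from RefSeq, on the plus strand of chromosome 14 in build GRCh38.p14, with the seed in capitals. The files hold no probe sequences, and array names without an arm were matched to an arm by name.
miR-665, chr14:100875075-100875094: aCCAGGAGgcugaggccccu
miR-370, chr14:100911186-100911207: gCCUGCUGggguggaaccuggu
miR-494, chr14:101029681-101029702: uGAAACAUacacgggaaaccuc
miR-300, chr14:101041414-101041435: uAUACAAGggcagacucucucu
miR-381, chr14:101045968-101045989: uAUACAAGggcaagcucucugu
miR-134, chr14:101054694-101054715: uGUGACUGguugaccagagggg
miR-485-3p, chr14:101055464-101055485: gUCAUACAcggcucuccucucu

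RefSeq held 47 of the 48 members, and miR-668 is named only. The 47 members carried 45 different seeds, of which 2 were shared by more than 1 member. One of these, AUACAAG, belongs to miR-300 and miR-381, which are identical at 19 of 22 positions and over their first 12 bases. Cross-hybridisation between their probes was not tested. The other 5 detected members share a seed with no other member. The nearest undetected relative of a detected member is miR-655, identical to miR-485-3p at 15 of 22 positions and at 6 of the 7 seed positions. Next comes miR-496, identical to miR-494 at 14 of 22 positions and at 3 seed positions.
miR-655: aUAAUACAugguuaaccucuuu
miR-496: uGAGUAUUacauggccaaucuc

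Detection did not follow the order of the hairpins. The 41 hairpins of the members span 198 kb. Before miR-370, 1 of 9 upstream members was detected, and from miR-379 to miR-656 it was 5 of 38. miR-370 stands alone, 42.1 kb from the first hairpin, miR-493. The next listed hairpin after it, miR-379, was not detected. miR-134 lies between miR-382 and miR-668, and neither was detected. miR-665 lies between miR-337 and miR-431, and none of their 3 listed arms was detected. For 7 hairpins both arms were on the list. In 1 of them, miR-485, a single arm was detected, the 3p arm, and in the other 6 neither was. The 5p arm of miR-485 was not detected on any array.
miR-485-5p: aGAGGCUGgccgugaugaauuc

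**Figure D1:**
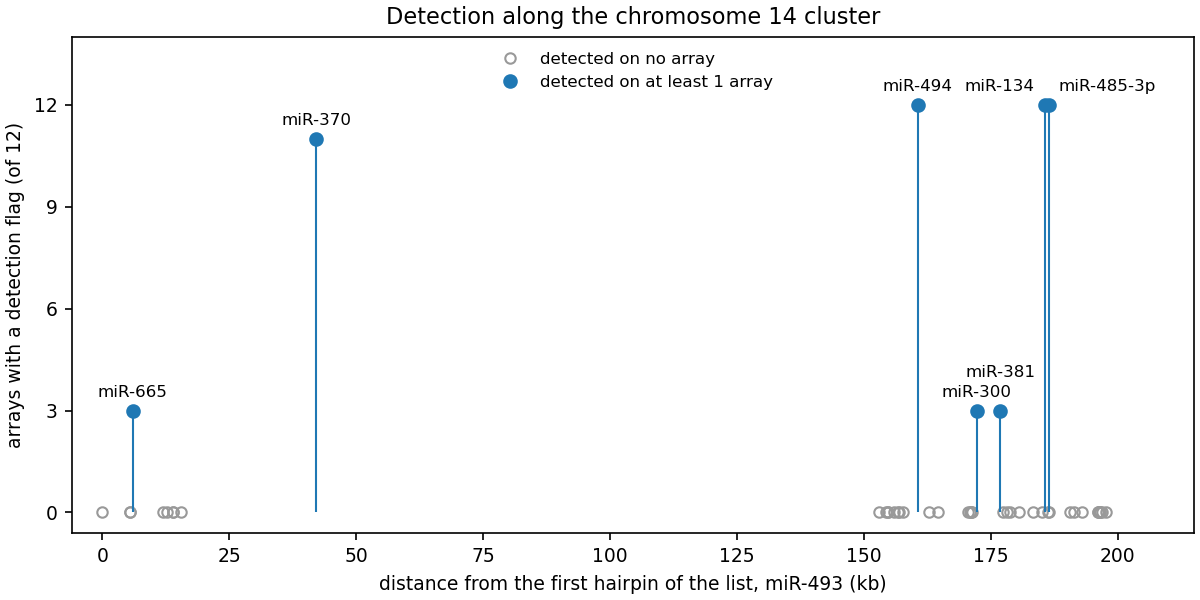
Number of the 12 arrays on which each of the 48 members was flagged as detected, against the distance of its hairpin from that of miR-493, in kilobases. Filled points mark the 7 members detected on at least 1 array and open points the 41 detected on none. Undetected members lie between the detected ones, except between miR-300 and miR-381, where no other member lies.

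The 41 members detected on no array include several of the best-known microRNAs of the locus. Upstream they were miR-127-3p and miR-127-5p, whose hairpin lies opposite RTL1, miR-337-3p, miR-337-5p, miR-431, miR-432, miR-433 and miR-493. In the large array they were miR-154, miR-299-3p, miR-299-5p, miR-323-3p, miR-329, miR-369-3p, miR-369-5p, miR-376a, miR-376b, miR-376c, miR-377, miR-379, miR-380, miR-382, miR-409-3p, miR-409-5p, miR-410, miR-411, miR-412, miR-485-5p, miR-487a, miR-487b, miR-495, miR-496, miR-539, miR-543, miR-654-3p, miR-654-5p, miR-655, miR-656, miR-668, miR-758 and miR-889. A further 19 names of the locus on the array were detected on no array either. This gives 7 of 67 locus names in all. An undetected name holds no level in these files, so the signal cannot be called absent.

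The detected share of the members was 14.6%, against 30.9% of all human names (263 of 851), 22.7% of the viral names on the same arrays (20 of 88) and 6.25% of the chromosome 19 microRNA cluster (3 of 48). The viral names probe microRNAs of viruses. The detected members had a GC content of 45.5% to 70.0% with a median of 54.5% (n = 7), and the undetected members 23.8% to 63.6% with a median of 45.5% (n = 40).

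On single arrays, 130 to 204 human names were detected. No pair of replicates had identical signals. A list of basal and mesenchymal breast markers was detected for 6 of 7 names (not miR-31). Of a luminal or epithelial list 1 of 6 was detected, miR-205, while the miR-200 family was not detected. The summed scaled signal of the basal list was 2076 to 2345 in control shRNA cells with vehicle and 642 to 781 in Dicer shRNA cells with vehicle. It was 43.8 to 85.8 in control shRNA cells with metformin and 283 to 409 in Dicer shRNA cells with metformin. The luminal or epithelial list, through miR-205 alone, was also highest in control shRNA cells with vehicle. Its sums were 620 to 645, 123 to 129, 106 to 134 and 76.8 to 105 in the same order of groups. A neural list was detected for 1 of 4 names, miR-128, with miR-124, miR-9 and miR-219-5p undetected. All vehicle arrays were on slide 1 and all metformin arrays on slide 2, and so treatment and slide cannot be told apart. On each slide control shRNA samples took the first 3 array positions and Dicer shRNA samples the next 3, and so line and position cannot be told apart. No probe reads the Dicer mRNA, and the knockdown was not checked here.

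The number of members detected per array was highest in control shRNA cells with metformin. It was 4, 4 and 3 in control shRNA cells with vehicle, 4, 4 and 5 in Dicer shRNA cells with vehicle, 7, 6 and 7 in control shRNA cells with metformin, and 4, 4 and 4 in Dicer shRNA cells with metformin. Means were 3.67 ± 0.577, 4.33 ± 0.577, 6.67 ± 0.577 and 4 ± 0 (SD, n = 3 each). The control shRNA metformin arrays did not overlap any other group. Metformin arrays of control shRNA cells detected 3 more members than vehicle arrays, and the difference between Dicer shRNA and control shRNA arrays under metformin was -2.67, each at p = 0.1 in an exact two-sided permutation test (0.2 after Benjamini-Hochberg adjustment over 4 comparisons). This is the smallest p that 3 against 3 arrays allow. The other 2 comparisons gave differences of 0.667 (exact p = 0.6) and -0.333 (exact p = 1). Over all human names the order was another, with 187 ± 14.7 names in control shRNA cells with vehicle, 161 ± 16.6 in Dicer shRNA cells with vehicle, 158 ± 6.11 in control shRNA cells with metformin and 141 ± 11 in Dicer shRNA cells with metformin. The viral names followed the order of the members over all 4 groups, with 11 ± 1, 12.3 ± 0.577, 14.7 ± 0.577 and 11.3 ± 0.577 names. miR-381 and miR-665 were among 9 human names detected on all 3 control shRNA metformin arrays and on no other array. Of the viral names, 2 had that pattern. A blood list (miR-223 and miR-486-5p detected, of 6 names) had summed signals of 15.2 to 20.4 on those 3 arrays and was undetected on the other 9, with miR-451, miR-142-3p, miR-142-5p and miR-144 undetected throughout. A muscle list (miR-133a and miR-133b detected, of 4 names) had summed signals of 24.9 to 29.9 on those arrays, 0 to 4.41 in control shRNA cells with vehicle, 0 to 6.52 in Dicer shRNA cells with vehicle and 7.74 to 21.1 in Dicer shRNA cells with metformin, with miR-1 and miR-206 undetected. The part of these lists in the pattern was not tested.

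Levels are given as array signal scaled so that the 75th percentile of 98 human microRNAs, those found on every array, was equal on every array. They serve to compare arrays for 1 microRNA and not 1 microRNA with another, since probes differ.

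hsa-miR-494 was detected on all 12 arrays with a signal 13.5 to 14 times its stated error. Its scaled signal was 5048, 5026 and 4246 in control shRNA cells with vehicle and 6062, 5896 and 5529 in Dicer shRNA cells with vehicle. It was 2923, 3352 and 3147 in control shRNA cells with metformin and 4596, 4989.5 and 4385 in Dicer shRNA cells with metformin. The Dicer shRNA arrays lay above the control shRNA arrays on both slides, and the metformin arrays lay below the vehicle arrays in both lines, without overlap in any of these 4 comparisons. Dicer shRNA cells with metformin and control shRNA cells with vehicle, neighbours in the order of levels, overlapped.

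hsa-miR-134, a microRNA known from neurons, where it acts on the LIMK1 messenger RNA in dendrites, was also detected on all 12 arrays. Its scaled signal was 66.5, 57.9 and 36.6 in control shRNA cells with vehicle and 133, 111 and 83.0 in Dicer shRNA cells with vehicle. It was 211, 165 and 189 in control shRNA cells with metformin and 165, 141 and 184 in Dicer shRNA cells with metformin. The control shRNA vehicle arrays were the lowest and overlapped no other group. The metformin groups were the highest and overlapped each other.

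hsa-miR-370, which is reported to act on the messenger RNA of CPT1A, a carrier step of fatty acid oxidation, was detected on 11 arrays. Its scaled signal was 4.31 and 3.49 on the first 2 control shRNA vehicle arrays, and it was not detected on the third. It was 8.77, 18.2 and 12.6 in Dicer shRNA cells with vehicle, 39.2, 34.0 and 36.0 in control shRNA cells with metformin, and 18.5, 17.4 and 23.2 in Dicer shRNA cells with metformin. The control shRNA groups were the lowest and the highest of the 4, and only the Dicer shRNA groups overlapped each other.

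hsa-miR-485-3p was detected on all 12 arrays at a low level, with a signal 5.22 to 8.77 times its stated error. Its scaled signal was 10.6, 11.1 and 13.1 in control shRNA cells with vehicle, 25.4, 14 and 8.22 in Dicer shRNA cells with vehicle, 19.3, 15.8 and 21.5 in control shRNA cells with metformin, and 14.2, 12.1 and 12.3 in Dicer shRNA cells with metformin. The Dicer shRNA vehicle arrays spanned the values of every other group.

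The seed partners miR-381 and miR-300 were detected together on 2 arrays. hsa-miR-381 was detected only on the 3 control shRNA metformin arrays, at scaled signals of 10.2, 4.04 and 10.3. hsa-miR-300 was detected on the first and the third of them, at 6.90 and 3.51, and on the third Dicer shRNA vehicle array, at 1.57. The array on which miR-381 was lowest was the one of the 3 that did not detect miR-300. hsa-miR-665 was detected only on the 3 control shRNA metformin arrays, at 2.18, 2.14 and 2.23, with signals 3.09 to 3.18 times the stated error. miR-300 was not detected on all 3 arrays of any group and was not tested further.

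**Figure D2:**
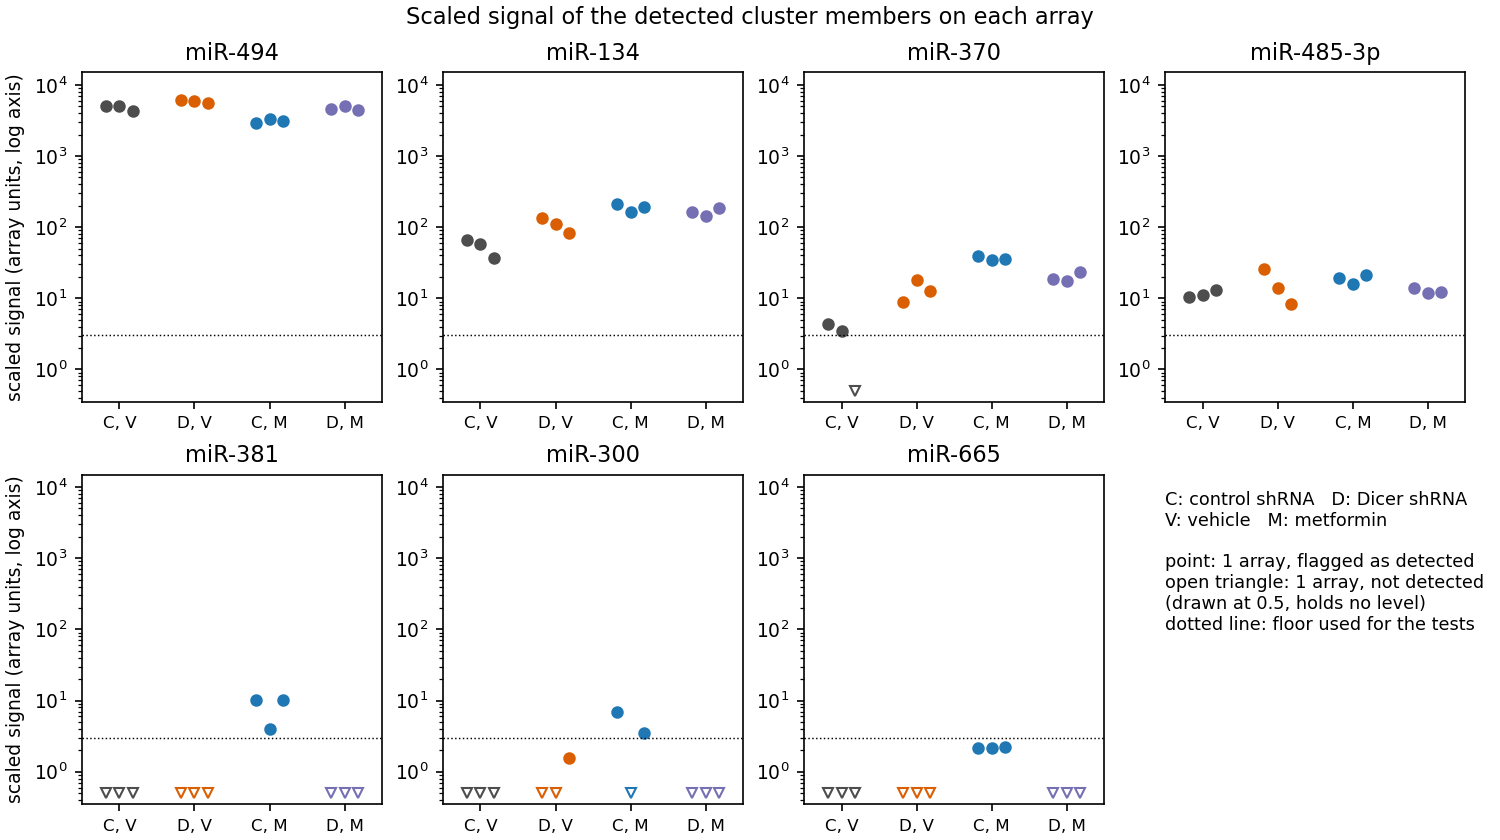
Scaled signal, in array units on a log axis, of the 7 detected members on each of the 12 arrays, by group (C, control shRNA; D, Dicer shRNA; V, vehicle; M, metformin). Open triangles are arrays with no detection, drawn at an arbitrary height, and the dotted line is the floor of 3.01 used for the tests; miR-381 and miR-665 have points in control shRNA cells with metformin alone.

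Differences between groups were tested with limma on log2 levels over 208 human microRNAs, those that every array of some group detected. Levels under a floor of 3.01 were set to that floor. A change was called where the Benjamini-Hochberg adjusted p over all 208 was under 0.05. Of the members, 6 were tested and 42 were not. These 6 passed because some group detected them, and so their counts stand beside the share over all tested microRNAs. miR-381 passed through control shRNA cells with metformin alone, so a difference of that group from the others was fixed by the filter. It is given as a detection and as a fold against the floor, with no test. Its lowest detected signal, 4.04, lay above the floor. An undetected level could lie there too, and so this fold is not a bound. miR-665 lay under the floor on every array and has no measured change. It could not be called with this floor, but it stays in the counts of tested members. Errors of miR-370 and miR-381 are understated, since arrays at the floor have no spread.

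Dicer knockdown under vehicle was accompanied by higher miR-370, miR-134 and miR-494. miR-370 rose by 1.83 ± 0.24 on the log2 scale (SE, adjusted p = 0.000102), a 3.55-fold difference limited by the floor, since 2 of 3 control arrays detected it. With a floor 2 times higher it was 1.07. miR-134 rose by 1.04 ± 0.24 (2.06-fold, adjusted p = 0.00329), and miR-494 by 0.29 ± 0.10 (1.22-fold, adjusted p = 0.0293). None of these 3 had overlapping groups. The miR-485-3p difference was 0.31 ± 0.33 (adjusted p = 0.476), with a direction that turned without the first Dicer shRNA vehicle array (-0.10) and a call without the third (0.71, adjusted p = 0.0283). miR-381 was detected in neither group.

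All 3 calls among the 6 tested members were higher, where 59.6% of the 208 were called, 21.6% higher and 38% lower. The higher and lower calls numbered 45 and 79, and 32 and 90 with the arrays scaled on the median of the 98 microRNAs, 61 and 53 after quantile normalization, and 17 and 105 with scaling on the viral names. Groups did not overlap for 3 of 6 members and for 63% of all tested. The median change was 0.31 over the 5 members other than miR-665, 0 over all 208 and 0.33 over the 98 microRNAs detected on every array. The 5 members include miR-381, undetected in both groups and so given a change of 0. miR-134 stood at percentile 88.0 of all changes and miR-494 at 66.3.

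The rise of miR-494 depended on the scaling. It was -0.12 with median scaling, -0.44 with viral scaling (adjusted p = 0.0499), 0 after quantile normalization and 0.14 without scaling (adjusted p = 0.323). Quantile normalization gives a name the mean signal at its rank, so the 0 reflects the rank of miR-494 and not a measured change. On the deposited log2 values the rise was 0.20 (adjusted p = 0.451), and over microRNAs detected on all arrays 0.29 (adjusted p = 0.0635), neither called. Without the third control shRNA vehicle array or the first or the second Dicer shRNA vehicle array it was 0.21, 0.26 and 0.28, no longer called. The change of miR-134 was 0.63 with median scaling and 0.31 with viral scaling (adjusted p = 0.209). In the same comparison all 10 viral names detected on every array were higher in Dicer shRNA cells, by 0.17 to 1.67 with a median of 0.87, and miR-134 lay inside this range. miR-370 lay above it with the floor as set, and at 1.07 with the higher floor and 0.65 with 16 added to each signal and no floor.

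Under metformin, Dicer knockdown was accompanied by lower miR-370 and by higher miR-494, and miR-381 was not detected in the Dicer shRNA cells. miR-370 fell by 0.89 ± 0.24 on the log2 scale (1.86-fold, adjusted p = 0.0146), with all 3 arrays of both groups above the floor. miR-381 was detected on 3 of 3 control shRNA arrays, on average 2.49-fold above the floor, and on 0 of 3 Dicer shRNA arrays. With a floor 2 times higher its log2 difference was -0.51. miR-494 rose by 0.57 ± 0.10 (1.48-fold, adjusted p = 0.00124). miR-134 differed by -0.21 ± 0.24 (adjusted p = 0.565). miR-485-3p differed by -0.55 ± 0.33 (adjusted p = 0.219), although its groups did not overlap, and was called with median scaling (-0.95, adjusted p = 0.0107), with array weights (adjusted p = 0.0306), in a fit of these 2 groups alone (adjusted p = 0.0424) and without the first Dicer shRNA vehicle array (adjusted p = 0.048).

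Without miR-381 these were 2 calls among the 5 other tested members, 1 higher and 1 lower, where 38.9% of all 208 were called, 13.9% higher and 25% lower (29 and 52, and 23 and 106 with median scaling, 40 and 13 with viral scaling). Groups did not overlap for 4 of 6 members, miR-381 among them, and 53.8% of all. The median change was -0.55 over the 5 members other than miR-665, -0.24 over all and -0.33 over the microRNAs detected on every array. The member median includes miR-381, whose difference the filter fixed. Of the 10 viral names, 1 was higher in Dicer shRNA cells, and their changes ran from -1.37 to 0.20, a range that holds the value of miR-370.

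The call of miR-370 was lost with viral scaling (-0.28, adjusted p = 0.784) and on the deposited log2 values (-0.85, adjusted p = 0.162). It was also lost without the first control shRNA metformin array (adjusted p = 0.0571) or the first or the second Dicer shRNA metformin array (adjusted p = 0.0516 and 0.0585). With 16 added to each signal and no floor its change was -0.56. The change of miR-494 was 1.19 with viral scaling and 0.16 with median scaling (adjusted p = 0.273). miR-134 was 0.41 with viral scaling and -0.61 with median scaling (adjusted p = 0.00586).

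Between metformin and vehicle in control shRNA cells, miR-370 showed a change of 3.35 ± 0.24 on the log2 scale (10.2-fold higher, adjusted p = 3.79e-07), again limited by the vehicle array that did not detect it. miR-134 rose by 1.85 ± 0.24 (3.60-fold, adjusted p = 3.28e-05). miR-381 was detected on 3 of 3 metformin arrays, on average 2.49-fold above the floor, and on 0 of 3 vehicle arrays. With a floor 2 times higher its log2 difference was 0.51. miR-494 went the other way and fell by 0.60 ± 0.10 (1.52-fold, adjusted p = 0.000231). miR-485-3p differed by 0.70 ± 0.33 (adjusted p = 0.0654). Its groups did not overlap, and it was called when either the first or the third Dicer shRNA vehicle array, which share the spread, was left out (adjusted p = 0.00818 and 0.0126). It was also called after quantile normalization (1.34, adjusted p = 0.00231), on the deposited log2 values (adjusted p = 0.0346) and with array weights (adjusted p = 0.00438). So it was in a fit of these 2 groups alone (adjusted p = 0.00549) and over microRNAs detected on all arrays (adjusted p = 0.0423).

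Without miR-381 the 3 calls among the 5 other tested members, 2 higher and 1 lower, stand beside 88% of all 208 called, 47.6% higher and 40.4% lower (99 and 84, and 29 and 132 with viral scaling). A count of 3 of 5 is thus not above the background. Groups did not overlap for 5 of 6 members, miR-381 among them, and 91.8% of all. The median change was 0.52 over all and 0.93 over the microRNAs detected on every array. Over the 5 members other than miR-665 it was 1.32, which is the floor-limited value of miR-381 and is no result about the members.

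All 10 viral names were higher on the metformin arrays, by 0.87 to 3.21 with a median of 1.38. With the floor as set miR-370 lay above this range, miR-134 and the floor-limited value of miR-381 inside it, and miR-494 below it. The 4 control features named hur fell, with changes of -5.03 to -0.86 and a median of -3.84. The part of the slide in these values cannot be told apart from the treatment. With viral scaling miR-134 changed by 0.02 (adjusted p = 0.945), miR-370 by 1.89, miR-381 by 0.52 and miR-485-3p by -1.13 (adjusted p = 0.0124, a call in the other direction), while miR-494 fell by 2.43. miR-370 and miR-494 kept their direction and call under the alternatives run. Their values also ranged widely with other choices, to 1.50 for miR-370 with 16 added to each signal and no floor. After quantile normalization miR-494 was at -1.60, a value set by its rank.

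Between metformin and vehicle in Dicer shRNA cells, miR-494 was the called member. It fell by 0.32 ± 0.10 on the log2 scale (1.25-fold, adjusted p = 0.0423). miR-134 differed by 0.60 ± 0.24 (adjusted p = 0.0914), with groups that did not overlap, miR-370 by 0.63 ± 0.24 (adjusted p = 0.0857) and miR-485-3p by -0.16 ± 0.33 (adjusted p = 0.895). miR-381 was undetected in both groups.

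That is 1 call among 6 tested members, where 24.5% of all 208 were called, 6.25% higher and 18.3% lower (13 and 38, and 6 and 44 without scaling, 33 and 25 after quantile normalization, 2 and 52 with viral scaling). Groups did not overlap for 2 members and 37% of all. The median change was 0 over all and 0.17 over the microRNAs detected on every array. Over the members it was also 0, a value set by miR-381 and miR-665, which lay at the floor in both groups. The miR-494 call was lost after quantile normalization (0, a value set by its rank) and on the deposited log2 values (-0.42, adjusted p = 0.152). It was also lost over microRNAs detected on all arrays (adjusted p = 0.0775) and in a fit of these 2 groups alone (adjusted p = 0.0503). Leaving out any 1 of 6 arrays lost it too, namely each Dicer shRNA vehicle array (-0.30, -0.32 and -0.36), the third control shRNA metformin array (-0.32) and the first or the third Dicer shRNA metformin array (-0.32 and -0.28). miR-134 was called without the third control shRNA vehicle or the first Dicer shRNA vehicle array (adjusted p = 0.043 and 0.0451). It was also called after quantile normalization (1.00, adjusted p = 0.00575), on the deposited log2 values (0.97, adjusted p = 0.0141) and with array weights (0.57, adjusted p = 0.0159). miR-370 was called after quantile normalization (0.75, adjusted p = 0.0495) and without the second Dicer shRNA vehicle array (0.89, adjusted p = 0.016). Without the first Dicer shRNA vehicle array the change of miR-370 was 0.37.

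**Figure D3:**
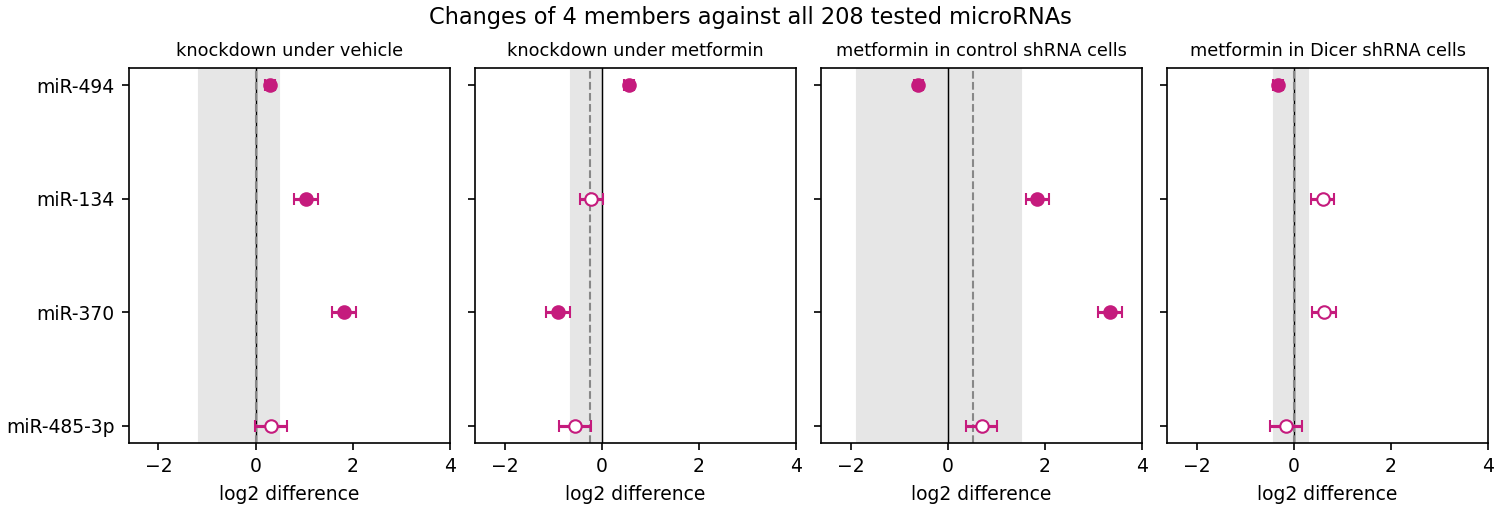
Log2 differences with standard errors of the 4 members detected on at least 11 arrays in the 4 comparisons, with filled points where the adjusted p was under 0.05. The grey band spans the middle of the changes of all 208 tested microRNAs, from lower to upper quartile, and the dashed line is their median; in control shRNA cells with metformin miR-370 stands at 3.35 and miR-494 at -0.60.

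The knockdown changes on the 2 slides were then compared with each other through the interaction, the change under metformin minus that under vehicle. It was -2.72 ± 0.34 for miR-370 (adjusted p = 6.57e-05), the lowest value among all 208 tested microRNAs with the floor as set. It was -1.25 ± 0.34 for miR-134 (adjusted p = 0.00744). For both the difference ran the same way. The 10 viral names detected on every array had a median knockdown change of 0.87 under vehicle and -0.49 under metformin. The 2 knockdown changes come from different slides, and so treatment and slide cannot be told apart in the interaction. miR-381, at the floor in 3 of the 4 groups, has no interaction of its own beyond its detection in 1 group. For miR-485-3p it was -0.86 ± 0.46 (adjusted p = 0.11) and for miR-494 0.28 ± 0.14 (adjusted p = 0.101). The 2 calls among the 5 tested members other than miR-381 were both lower, where 76.4% of all 208 were called, 37% higher and 39.4% lower (77 and 82, and 106 and 19 with viral scaling). The median was -1.25 over the 5 members other than miR-665, -0.53 over all and -0.68 over the microRNAs detected on every array. The member median again includes miR-381, whose value restates its detection in 1 group.

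The interaction of miR-370 kept its call under the alternatives run, at -1.74 with viral scaling and -1.20 with 16 added to each signal and no floor. That of miR-134 was 0.10 with viral scaling (adjusted p = 0.762). That of miR-494 was called without the third control shRNA vehicle array (0.36, adjusted p = 0.0171), without scaling (0.50, adjusted p = 0.016) and with viral scaling (1.62, adjusted p = 0.000204). It was also called on the deposited log2 values (0.805, adjusted p = 0.0289) and with array weights (0.39, adjusted p = 0.00685). The 1.60 after quantile normalization (adjusted p = 0.000149), also called, was set by the rank of miR-494. In 17 other fits its interaction was not called. That of miR-485-3p was called without the third Dicer shRNA vehicle array (-1.26, adjusted p = 0.00661) and was -0.45 without the first. It was also called after quantile normalization (-1.26, adjusted p = 0.0251) and with array weights (-0.79, adjusted p = 0.027). With viral scaling it was 0.49, not called.

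Averaged over both slides, the knockdown change was 0.43 ± 0.07 for miR-494 (adjusted p = 0.000811), higher in Dicer shRNA cells. It was called under the alternatives run except median scaling (0.02, adjusted p = 0.824). The average was 0.47 ± 0.17 for miR-370 (adjusted p = 0.046), a mean of changes of opposite direction, and its call was lost in 10 of the 12 fits that left out 1 array. Its value was 0.11 with median scaling, 0.088 with the higher floor and 0.045 with 16 added to each signal and no floor, none of them called. miR-381, detected in 1 group alone, has no average to report. miR-134 averaged 0.42 ± 0.17 (adjusted p = 0.064) and was called without the first control shRNA vehicle or the third Dicer shRNA vehicle array (adjusted p = 0.034 and 0.03) and after quantile normalization (0.68, adjusted p = 0.00257), and was 0.008 with median scaling. miR-485-3p averaged -0.12 ± 0.23 (adjusted p = 0.714) and was called with median scaling (-0.52, adjusted p = 0.0344). Of all 208, 51% were called, 15.4% higher and 35.6% lower (32 and 74, and 4 and 129 with median scaling, 56 and 47 after quantile normalization).

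The members detected across the arrays were each nearest in profile to different names. For each member detected on at least 6 arrays, the 5 nearest of 216 tested human and viral names by Pearson correlation of log2 level over the 12 arrays are given as a description. The arrays share groups and slides, which set much of any correlation here. miR-134 was nearest to miR-1268 (r = 0.986), miR-1224-5p (0.984), miR-371-5p (0.984), miR-1226* (0.983) and miR-572 (0.982). miR-370 was nearest to miR-135a* (r = 0.973), miR-1181 (0.973), miR-1275 (0.970), miR-1915 (0.969) and miR-874 (0.968). The names nearest to miR-134 and to miR-370 had none in common. Even so, both microRNAs had their lowest group mean in control shRNA cells with vehicle and their highest in control shRNA cells with metformin. miR-485-3p was nearest to miR-1825 (r = 0.955), miR-483-3p (0.941), miR-885-5p (0.924), miR-877* (0.919) and miR-328 (0.917). miR-494 was nearest to miR-181b (r = 0.935), miR-181a (0.915), miR-1826 (0.895), miR-1308 (0.844) and miR-222 (0.843). No member of the chromosome 14 list was among the 5 names nearest to another member.

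**Figure D4:**
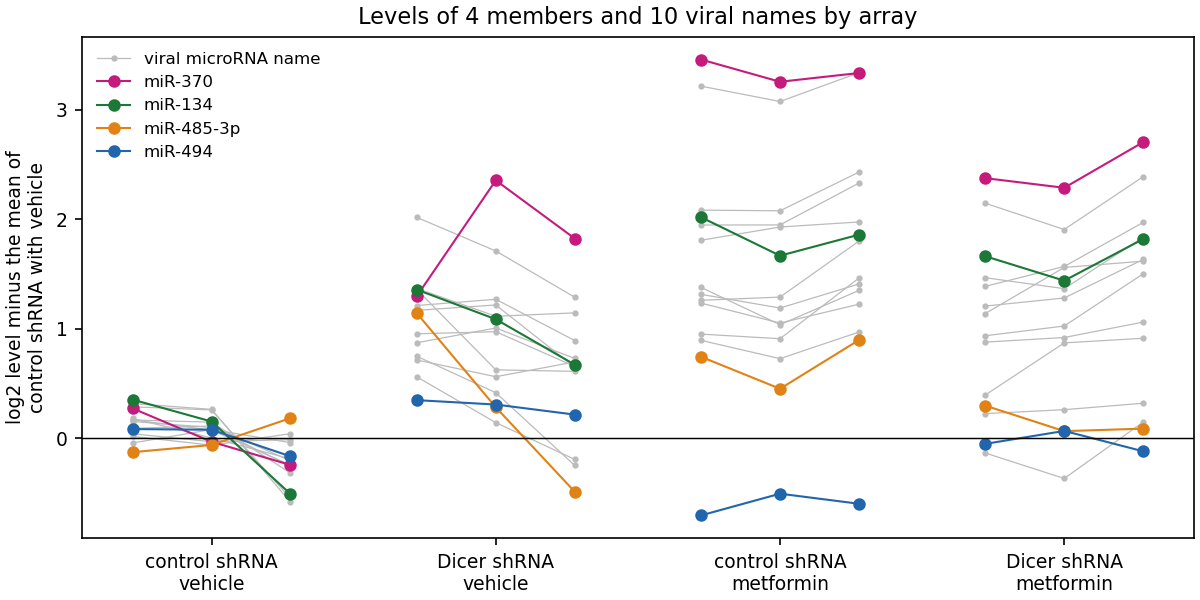
Log2 level of 4 members and of the 10 viral names detected on all arrays, on each array, minus the mean of the 3 control shRNA vehicle arrays; arrays of a group are joined by lines. miR-370 and miR-134 sit among or above the viral names in the other 3 groups, and miR-494 lies below zero in control shRNA cells with metformin.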

How the data were processed

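Cy3-labelled total RNA was hybridised to 1-colour Agilent arrays, per the labels. The deposited array files hold, per the file headers, an intensity per microRNA name, its error and a detection flag, and come from Agilent Feature Extraction 9.1, a version credited to the submitters' processing notes. How background was handled is not given in the sources used here. Undetected names hold an intensity of 0.1. The series matrix, also deposited, has 221 microRNAs as log2 values (column medians 3.19 to 4.06) whose direction and scale follow log2 of the array signal. Its normalization and centring stay unknown, and it served as an alternative. The labelling kit named in the labels is one for mRNA, and both metformin groups have source names at odds with their titles. Groups were taken from the titles.

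The members and lists were chosen with earlier results of these data known. Members detected on at least 1 array are named with their levels, those detected on all 3 arrays of a group with their changes, and the others once.

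Scaling factors were 0.869 to 1.20. For the floor, the 5th percentile of each array's detected scaled signals was taken, and their median was 3.01 (log2 1.59). The model had 4 group means (limma 3.58.1, lmFit and eBayes, under R 4.3.3 with data.table version 1.17.8), 8 residual and 1.85 prior degrees of freedom, and was tested on simulated data. Where all arrays of a group were at the floor, the fold is against the floor and is not a bound. Python 3.11.15, numpy 2.4.6, pandas 2.3.3, scipy 1.17.1 and matplotlib 3.10.9 were used. Alternatives changed the scaling, floor, detection filter, source of values and model, and left out each array. The arrays' number limits precision. Mature names were matched to RefSeq arms by name.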

Additional observations from a re-analysis of the deposited data

Results flagged for a closer look

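The knockdown change of miR-370 and miR-134 differed between metformin and vehicle by a test of the difference itself. miR-370 was higher in Dicer shRNA cells under vehicle and lower under metformin, a difference of -2.72 on the log2 scale (limma, adjusted p = 6.57e-05). miR-134 was higher under vehicle (1.04) and differed by -0.21 under metformin, a difference of -1.25 (adjusted p = 0.00744) that was 0.10 with scaling on the viral names. For miR-381 the same fit gave -1.32, which restates its detection in control shRNA cells with metformin alone, through which it entered the fit. It is no evidence of a differing change. Of all 208 tested microRNAs, 76.4% were called in this test. The median knockdown change of the 10 viral names detected on every array was 0.87 under vehicle and -0.49 under metformin. Vehicle and metformin arrays were on different slides, and so treatment and slide cannot be told apart in this difference. Groups of 3 arrays are too small for a test of outlying samples.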

How the results depend on the processing

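The number of arrays, 3 per group, and signals near the detection limit for miR-370, miR-381, miR-300 and miR-665 limit precision. The median change of all 208 microRNAs moved with scaling on the viral names by -0.60 (knockdown, vehicle), 0.25 (knockdown, metformin), -1.68 (metformin, control shRNA), -0.19 (metformin, Dicer shRNA) and 1.32 (interaction). With median scaling it moved by -0.24, -0.37, -0.09, 0 and 0.02 in the same order, after quantile normalization by 0.23 and without scaling by 0.08 in the knockdown under metformin, and without scaling by -0.32 in metformin in control shRNA cells. The 75th percentile over all human names fell on undetected names on every array, which equals no scaling, and was not run.

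Directions turned with viral scaling for miR-485-3p (knockdown under vehicle -0.42, under metformin 0.072, metformin in control shRNA cells -1.13, interaction 0.49), miR-134 (knockdown under metformin 0.41, interaction 0.10) and miR-494 (knockdown under vehicle -0.44). With median scaling they turned in the knockdown under vehicle for miR-485-3p (-0.10) and miR-494 (-0.12). For miR-485-3p they also turned after quantile normalization (metformin in Dicer shRNA cells 0.086, averaged knockdown 0.071) and on the deposited series matrix (metformin in Dicer shRNA cells 0.21). Without 1 Dicer shRNA vehicle array miR-485-3p gave -0.10 to 0.71 (knockdown under vehicle), -0.56 to 0.25 (metformin in Dicer shRNA cells) and, without the third, 0.083 (averaged knockdown). The cause was not tested.

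The number of called members fell from 3 to 1 in the averaged knockdown without scaling, with viral scaling, with the higher floor and over microRNAs detected on all arrays, which leaves 3 members to test. That last filter also gave 1 in the knockdown under vehicle, 1 in the knockdown under metformin, 1 in the interaction and 0 for metformin in Dicer shRNA cells. Viral scaling gave 1 in the knockdown under metformin. The interaction gave 5 after quantile normalization, on the series matrix and with array weights. Metformin in Dicer shRNA cells gave 2 after quantile normalization and with array weights, and 0 in a fit of the groups compared alone. Leaving out 1 array gave 2 to 4 called members in the knockdown under vehicle, 2 to 4 in the knockdown under metformin, 4 to 5 for metformin in control shRNA cells, 0 to 2 for metformin in Dicer shRNA cells, 3 to 4 in the interaction and 1 to 4 in the averaged knockdown. The averaged knockdown gave 1 without the third control shRNA vehicle array or the first or the third control shRNA metformin array. Metformin in Dicer shRNA cells gave 2 without the third control shRNA vehicle array, and 0 without the third Dicer shRNA vehicle, the third control shRNA metformin, or the first or the third Dicer shRNA metformin array. Counting signals above the floor in place of flags gave 5.67 members per array in control shRNA cells with metformin.

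These counts include miR-381, whose difference the filter fixed. Where no count over all tested microRNAs stands beside them, they show how the calls moved and are no result about the members in particular. miR-665, which passed through the same group, was called with the offset (metformin in control shRNA cells 0.18, knockdown under metformin -0.18, interaction -0.18, averaged knockdown -0.092) and on the series matrix (1.75, -1.75, -1.75 and -0.88).

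Same-numbered samples did not deviate together (r from -0.19 to 0.32, 7 of 18 pairs over 0.1), and 14 of 36 sample comparisons correlated best with their own number. With the replicate number as a block, 3 members were called in the knockdown under vehicle, 3 under metformin, 4 for metformin in control shRNA cells, 1 in Dicer shRNA cells, 3 in the interaction and 2 in the averaged knockdown, where miR-370 lost its call (adjusted p = 0.076). Over all 208, the block gave 124, 83, 182, 47, 159 and 102 calls, against 124, 81, 183, 51, 159 and 106.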
